A study of Homo sapiens with 8 samples.

Results

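The regions described here are 259 assembled transcript models that lie on or next to protein-coding genes in NB4 cells. NB4 cells, from a human acute promyelocytic leukaemia, express the PML-RARA fusion protein and mature when given all-trans retinoic acid (ATRA). They were chosen by name, position and measured level. A model entered when its identifier began with TCONS, when its mean over the 4 groups was at least 1 FPKM (fragments scaled to model length and to sequencing depth), and when its locus overlapped, or lay within 5 kb of, a RefSeq coding model (identifier beginning NM_). The tables held 65986 models, of which 21434 were assembled, 3690 of these lay within 5 kb of a coding locus, and 712 reached 1 FPKM at any position. The files give these models no symbol, except that TCONS_00040336_HOTTIP and TCONS_00040338_HOTTIP, near HOXA13, carry the name HOTTIP. Whether the models code for protein is not something these tables test, so they are called assembled models here.

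The cells carried a lentiviral short hairpin, either scrambled (shScr) or against TFEB (shTFEB), the transcription factor of lysosome and autophagy genes. Treatment lasted 72 h, with 1 µM ATRA or with ethanol as the vehicle. Crossing hairpin and treatment gives 4 groups, each of 2 samples in the labels. All 4 groups share the NB4 background and a lentiviral hairpin, the labels name no further clone, and wild-type cells are not analysed here. The titles of both shScr ATRA samples also carry the word vehicle, and their treatment field gives ATRA.

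Each deposited table held 1 FPKM per model for a whole group, so no spread between replicates could be computed, no test was made, and every difference below is a description of 4 values. A value is set against a mark of size: a model was counted as higher or lower when log2((FPKM + 1)/(FPKM + 1)) was at least 1 in size, which is 2-fold on that scale and understates differences of low models. In bulk RNA, fewer cells of a type and less RNA per cell cannot be told apart. TFEB summed to 1.20 FPKM (vehicle) and 19.4 (ATRA) in shScr cells and to 1.35 and 8.44 in shTFEB cells, so the library labelled shTFEB was lower than shScr under ATRA and not under vehicle. MPO, the granule peroxidase of promyelocytes, lay between 594 and 3871 FPKM, while ELANE, another granule gene, reached at most 0.0456 and CTSG lay between 0.0341 and 3.27. MS4A1 of B cells, HBA1 and HBB of red cells and COL1A2 of fibroblasts were listed at 0, but CD3D of T cells lay between 0.368 and 3.76, EPCAM of epithelia between 1.77 and 6.05 and KRT18, an epithelial keratin, between 13.9 and 29.7 FPKM. RPL21, a ribosomal protein gene that every cell uses, was also listed at 0 in all 4 groups, so a 0 in these tables does not show absence. Steps in the lowest values put the depth of the other groups at 0.911 to 1.17 times that of shScr vehicle, a rough figure since 57.6%, 57.6% and 56.6% of the value pairs fell on such steps.

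RNA polymerase often starts in both directions at an active promoter, and the upstream, divergent RNA can be spliced into a long noncoding transcript. Such RNAs are commonly named after the coding neighbour, with the suffix DT for a divergent transcript or AS for an antisense one. Beyond the annotated 3′ end of a gene, assemblies can hold longer ends of the gene's own transcript, unterminated transcription or separate units. Few of these RNAs have a known function, and a level that moves with a neighbour can reflect shared transcription without any action of the RNA. Here the counting is not stated to use strand, so reads of a model and of an overlapping or antisense gene cannot be told apart. Whether a model is part of its neighbour's transcript was not tested.

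The promoters of 5 coding neighbours are printed first, because the assembled models on their 5′ side were among those with the largest differences with ATRA. Each line holds the 250 bases before the gene's start, 5′ to 3′ on the gene's strand, from RefSeq on build GRCh38.p14. Gaps and sides were measured from the coding loci on hg19. Whether the printed start is also the start of that locus was not tested, for KLHDC7B or the others. IFIH1 is at chr2:162318685-162318934 (minus strand), KLHDC7B at chr22:50545649-50545898 (plus), LRRK2 at chr12:40224747-40224996 (plus), NRROS at chr3:196639444-196639693 (plus) and RNASEH1 at chr2:3558334-3558583 (minus). Capitals mark 2 copies of GAAA with any 2 bases between them, the core of the interferon-stimulated response element, and GGGCGG, the GC box, each searched on both strands.
IFIH1 promoter: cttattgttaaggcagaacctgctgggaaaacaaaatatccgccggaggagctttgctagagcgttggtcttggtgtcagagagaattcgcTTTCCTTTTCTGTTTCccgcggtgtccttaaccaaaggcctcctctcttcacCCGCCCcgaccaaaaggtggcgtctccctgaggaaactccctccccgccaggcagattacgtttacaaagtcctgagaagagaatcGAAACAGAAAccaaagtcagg
KLHDC7B promoter: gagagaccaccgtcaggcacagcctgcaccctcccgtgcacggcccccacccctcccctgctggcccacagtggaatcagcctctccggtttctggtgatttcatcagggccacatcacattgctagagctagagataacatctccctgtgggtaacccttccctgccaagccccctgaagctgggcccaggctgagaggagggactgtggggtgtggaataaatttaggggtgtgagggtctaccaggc
LRRK2 promoter: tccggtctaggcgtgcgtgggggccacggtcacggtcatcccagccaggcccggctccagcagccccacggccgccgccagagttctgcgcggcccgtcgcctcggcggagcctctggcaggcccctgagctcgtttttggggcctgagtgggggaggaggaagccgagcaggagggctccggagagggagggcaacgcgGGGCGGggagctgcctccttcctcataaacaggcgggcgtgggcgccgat
NRROS promoter: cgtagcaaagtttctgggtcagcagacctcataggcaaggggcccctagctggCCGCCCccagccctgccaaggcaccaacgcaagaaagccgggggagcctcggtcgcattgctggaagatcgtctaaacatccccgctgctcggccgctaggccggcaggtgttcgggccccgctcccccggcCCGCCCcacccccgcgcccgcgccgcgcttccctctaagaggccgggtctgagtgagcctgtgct
RNASEH1 promoter: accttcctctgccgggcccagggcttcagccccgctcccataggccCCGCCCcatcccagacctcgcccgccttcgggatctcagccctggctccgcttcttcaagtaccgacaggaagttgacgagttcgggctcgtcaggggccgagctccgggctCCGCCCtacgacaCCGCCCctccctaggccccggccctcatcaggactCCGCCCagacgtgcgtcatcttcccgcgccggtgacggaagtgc
IFIH1 held the interferon core at 3 places, of which a pair overlap each other, and 1 GC box. KLHDC7B held neither motif, LRRK2 held 1 GC box, NRROS 2 and RNASEH1 4. Over the promoters of 27305 RefSeq symbols, 3.07% held the interferon core and 42.3% a GC box. Of the 123 coding genes with an assembled model on their 5′ side, 108 had a promoter entry, and 2 of those held the interferon core (1.85%) and 77 a GC box (71.3%). Of the 59 genes with models on the 3′ side only, 48 had an entry and 24 of those held a GC box (50.0%). CG dinucleotides numbered 22 in the median promoter of the 5′ group, 16.5 in that of the 3′ group and 11 over all symbols. TCACGTGA, the palindrome that TFEB and its relatives recognise, stood in 3 of the 108 promoters (2.78%) against 0.890% of all, and in 0 of the 48. These matches describe letters in a window and not bound sites, and how far expression level bears on these shares was not tested. The sequences of the assembled models themselves are not printed, since no hg19 genome was used here.

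The 259 models formed 200 sets of overlapping loci. Of these sets, 42 held more than 1 model and together 101 models, with 5 in the largest, so models of a set share fragments and are not separate observations. They had 194 nearest genes, and 42 models had more than 1 gene within 5 kb. A RefSeq noncoding model (NR_) overlapped 63 of them, under 37 names, of which 12 end in DT and 8 in an AS suffix. No small RNA model overlapped any, and 180 overlapped neither a coding nor a noncoding RefSeq model. Chromosome 2 held 35 of them, chromosome 1 held 24 and chromosome 7 held 23.

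Most models lay at the 5′ end of their neighbour. Taking the strand of the neighbour by its symbol from GENCODE 29, 165 models (63.7%) lay on the 5′ side, 74 (28.6%) on the 3′ side and 18 (6.95%) overlapped the gene, with 2 unplaced. The order of gene and neighbouring gene was the same in that annotation for 245 models and not for 5. The median gap was 407 bases on the 5′ side and 2084 on the 3′ side. Within 500 bases lay 91 of the 165 on the 5′ side (55.2%) and 12 of the 74 on the 3′ side (16.2%). The 3431 assembled models near genes that stayed under 1 FPKM were placed much the same, at 64.2% 5′, 21.9% 3′ and 12.4% overlapping, with 43.0% of their 5′ models within 500 bases. The closeness to gene starts was thus shared with models under 1 FPKM.

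**Figure D1:**
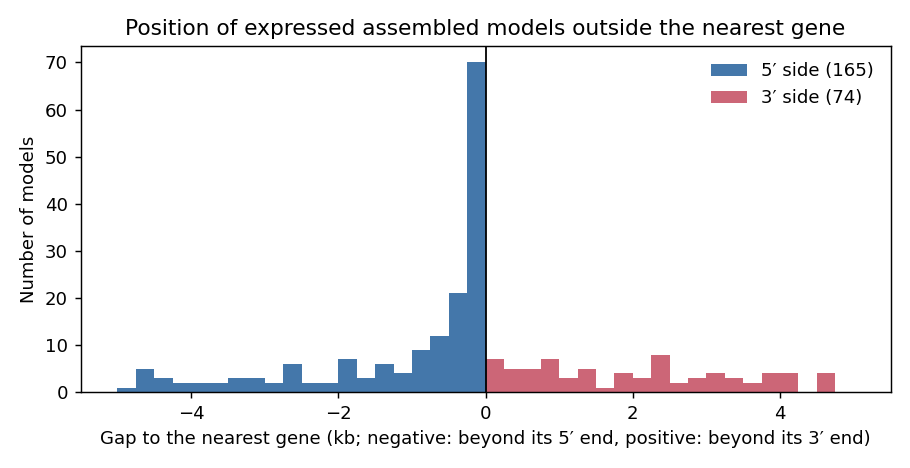
Number of expressed assembled models (y axis) by the gap in kb to the nearest coding gene (x axis, bins of 0.25 kb), with models beyond the 5′ end at negative and those beyond the 3′ end at positive gaps. The 165 models of the 5′ side pile up next to the gene start, while the 74 of the 3′ side spread over the 5 kb allowed. The 18 overlapping and 2 unplaced models are not drawn.

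The mean level was one of the values that chose the models, so levels are a description. Means ran from 1.00 to 109 FPKM with a median of 2.03, and 125 models lay under 2, 39 at 5 or more and 20 at 10 or more. Just inside the lower limit were TCONS_00015327 near RPL30 (mean 1.00), TCONS_00004657 near TMEM18 (1.01) and TCONS_00026873 near TNFSF14 (1.01). Just outside were TCONS_l2_00016425 near SIRPB2 (0.997), TCONS_00015664 near NPR2 (0.993) and TCONS_00003299 near C2orf74 (0.991). At the limit of distance, TCONS_00029706 near NFAM1 lay 4950 bases away, TCONS_l2_00008581 and TCONS_l2_00008582 near CCDC9B 4748 and 4740, and, outside it, TCONS_l2_00026551 near ADCY1 lay 5041, TCONS_00024547 near CLDN9 5082 and TCONS_00026319 near ZNF24 5232 bases away.

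Levels of model and neighbour were compared as FPKM, which is per length. The median model had 22.0% of its gene's level, with quartiles of 7.93% and 63.2%, over the 210 models whose nearest gene had a mean of at least 1 FPKM. In 29 of them the model was above its gene, and for 15 further models the nearest gene was listed at 0 in all groups. The genes of the remaining 34 were above 0 but under 1 FPKM, where the entry rule places the model above its gene, so 78 of all 259 models stood above theirs.

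Values below are FPKM in the order vehicle then ATRA in shScr cells, followed by vehicle then ATRA in shTFEB cells. The highest model was TCONS_00022986 (chr14:50320358-50329569, hg19), 818 bases 5′ of NEMF, a factor of ribosome quality control, at 145, 88.8, 111 and 93.8, where NEMF itself was at 20.1, 15.2, 21.1 and 19.0. The model was above its gene in all 4 groups. Next to MOB1A, a Hippo pathway scaffold, TCONS_00002935 (chr2:74378365-74381319), which overlaps BOLA3-DT, measured 26.3, 37.1, 27.0 and 38.0 and MOB1A 76.3, 118, 77.2 and 125. Both were somewhat higher with ATRA in both lines, without reaching the mark. TCONS_00020260 (chr12:125510478-125513897), 128 bases 3′ of BRI3BP, had 34.9, 17.5, 36.2 and 21.3 beside 28.1, 14.6, 31.2 and 17.8 for the gene, nearly the same profile just short of the mark. Beyond the 3′ end of PLAC8, a myeloid gene, TCONS_00008143 (chr4:84009930-84010241) had 22.9, 21.4, 17.3 and 14.3. It did not reach the mark in any comparison, and PLAC8 stood at 40.5, 28.9, 36.6 and 33.8. TCONS_l2_00026003 (chr7:72300538-72307962) near TYW1B, over the SBDSP1 pseudogene, had 20.8, 16.8, 22.8 and 27.2, a value that a near-identical gene copy can share.

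With ATRA in shScr cells, 47 models passed the mark upwards and 29 downwards, 76 of 259 (29.3%), where 30.1% of all 15459 models of at least 1 FPKM passed the mark. The higher ones made 18.1% against 14.1% of all models and the lower ones 11.2% against 16.1%. The median log2 ratio was 0.20 for these models and -0.12 for all. Assembled models farther than 5 kb from a coding locus had 21.0% higher, 11.9% lower and a median of 0.19 (453 models). In shTFEB cells, 30 were higher and 24 lower with ATRA, 54 of 259 (20.8%) where 23.8% of all passed, with 11.6% higher against 12.4% and 9.27% lower against 11.4%. The median there was 0.01, and that of all models -0.11, while 18.8% of the farther assembled models were higher and 8.61% lower. The 47 and 29 models came from 40 and 21 sets, and the 30 and 24 from 29 and 18. Among the 39 models with a mean of at least 5 FPKM, 6 were higher (15.4%) and 12 lower (30.8%) in shScr cells and 4 higher (10.3%) and 7 lower (17.9%) in shTFEB cells. Of all 9511 models at that level, 13.3% were higher and 17.6% lower in shScr cells, and 11.8% and 11.1% in shTFEB cells. The deposited bounds of the compared groups did not overlap for 41 of the 47 and 28 of the 29 models in shScr cells. In shTFEB cells they did not overlap for 27 of the 30 and 24 of the 24. The share over all models is not given here, so these counts are not read as particular to these models. Per table, the FPKM itself lay within its bounds for only 71.4% to 77.1% of those of the 259 models that had at least 1 FPKM. The bounds are therefore not read as confidence intervals.

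Both lines, which share no sample in these contrasts, called 19 models higher with ATRA, 40.4% of those called in shScr and 63.3% of those called in shTFEB cells. Over all 15459 models these shares were 67.7% and 76.9%. Both called 17 lower, 58.6% and 70.8% of the respective lists, where 53.8% and 75.9% of all models were. A pair of models went opposite ways, and 162 of the 259 (62.5%) passed the mark in none of the 4 two-group comparisons, against 63.8% of all models.

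Among the models with the largest ATRA difference were neighbours of genes known from the interferon and retinoid responses. The models near IFIH1, KLHDC7B, SP110 and RBP5 met the mean of 1 FPKM mainly through their ATRA values, so their rise is a description only. IFIH1 encodes the cytosolic sensor of double-stranded RNA also called MDA5. On its 5′ side, 325 bases from the gene, TCONS_00004935 (chr2:163175544-163176543) measured 0.644, 16.8, 0.878 and 28.6. The gene measured 1.31, 18.0, 1.09 and 55.5. Both were low under vehicle and high under ATRA in each line, and the log2 ratio of the model was 3.44 in shScr and 3.98 in shTFEB cells, beside 3.05 and 4.76 for IFIH1. Its promoter is the printed one with 3 matches to the interferon core.

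KLHDC7B encodes a kelch-repeat protein. TCONS_00029630 (chr22:50984904-50986244), 217 bases 5′ of the gene's coding locus on hg19, had 0.388, 3.70, 1.98 and 24.7, and the gene 1.19, 2.49, 1.55 and 12.2. The shTFEB ATRA group stood far above the other 3 in both. A second, non-overlapping model 3048 bases upstream, TCONS_00029745 (chr22:50981206-50983413), had 0.216, 0.824, 0.368 and 4.39, again highest in shTFEB ATRA. Under ATRA the log2 ratio of shTFEB to shScr was 2.45 for the first, 1.56 for the second and 1.92 for the gene.

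SP110 is an interferon-induced nuclear body protein. TCONS_00003119 (chr2:230990026-231032210), 1434 bases beyond its 3′ end, had 0.801, 4.76, 0.442 and 10.3, and SP110 had 7.27, 33.9, 7.45 and 96.3. Model and gene were both highest in shTFEB ATRA. IFITM2, which restricts virus entry, had a model 138 bases beyond its 3′ end, TCONS_00020033 (chr11:309549-311060), at 1.07, 1.99, 1.23 and 2.83 beside 179, 181, 166 and 317 for the gene. That model did not reach the mark in any comparison.

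These 3 were the only genes with a model among 74 interferon-stimulated genes listed, of which 73 were expressed. In the whole list 48 genes passed the mark upwards with ATRA in shScr cells and 0 downwards, with a median log2 ratio of 2.08. In shTFEB cells 69 passed upwards and 0 downwards, with a median of 3.68, and under ATRA 58 were higher and 0 lower in shTFEB than in shScr cells. Of all models, 14.1% passed upwards with ATRA in shScr cells and 12.4% in shTFEB cells. Between the lines under ATRA 4.42% did. The list, like the models, was drawn up with results of these data known.

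CD38 encodes a surface NAD glycohydrolase that retinoic acid is known to induce in myeloid cells. TCONS_00008443 (chr4:15852163-15857611), 1456 bases beyond its 3′ end, had 8.92, 94.0, 10.2 and 69.8, and CD38 had 11.6, 108, 11.5 and 94.0. The profile of the model followed that of the gene at nearly its level, with log2 ratios of 3.26 and 2.66 for the model and 3.11 and 2.93 for the gene. DHRS9, a retinol dehydrogenase, had TCONS_00003045 (chr2:169957253-169957720) 4575 bases beyond its 3′ end, at 0.969, 2.08, 1.45 and 3.99, beside 12.4, 43.7, 18.0 and 86.0. Model and gene were both highest in shTFEB ATRA, and the model passed the mark with ATRA in shTFEB cells alone, at 1.03 against 0.65. Of 46 retinoic acid response genes listed, 30 were expressed and these 2 had a model. In that list 22 genes passed upwards and 2 downwards in shScr cells, and 23 and 2 in shTFEB cells. Of all models, 14.1% and 12.4% passed upwards in these lines.

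RBP5 binds retinol inside cells, and a set of 2 models lay at its 5′ end. TCONS_00021281 (chr12:7281677-7282613) had 0.751, 5.20, 0.590 and 2.65 and TCONS_00021280 (chr12:7281675-7282622) had 0, 2.36, 0.701 and 4.57. RBP5 had 0.716, 5.85, 0.952 and 4.33, so both models were higher with ATRA where the gene was, but the larger of the 2 changed between the lines.

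LRRK2 encodes a large kinase expressed in myeloid cells and mutated in familial Parkinson disease. Its 5′ model TCONS_00020243 (chr12:40579811-40617605) had 0.101, 4.54, 0.144 and 3.33 beside 1.01, 74.6, 0.649 and 38.1 for the gene. Model and gene were both far higher with ATRA, and highest in shScr ATRA. CD300C is an activating receptor of myeloid cells, and TCONS_00026160 (chr17:72530814-72534060) beyond its 3′ end had 0.467, 4.45, 1.19 and 4.61 where the gene had 1.84, 13.8, 2.17 and 14.6. NFAM1, a receptor with an ITAM motif, had a 5′ model, TCONS_00029706, at 0.341, 2.61, 0.145 and 1.87 beside 10.4, 28.4, 6.76 and 18.5. In each of these 3 pairs model and gene were higher with ATRA in both lines. These models, too, met the mean of 1 FPKM mainly through their ATRA values, so this is a description only.

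Some models were high with ATRA beside genes at a lower level. TCONS_l2_00010170 (chr16:53399373-53404817) overlapped a coding model for which no symbol was matched (NM_001207030) and had 0.445, 14.1, 0.425 and 16.4, where the coding model had 0.841, 2.34, 1.03 and 3.09. TCONS_00015829 (chr9:71158457-71161505), 2673 bases 5′ of TMEM252, had 0.190, 6.53, 0 and 5.53 while TMEM252 had at most 0.130. Near CFAP58, a gene of cilia and flagella, TCONS_00018036 (chr10:106111349-106113333) had 0.0652, 6.29, 0 and 3.20, above the gene's 0.368, 3.74, 0.261 and 1.90 in the ATRA groups. TCONS_l2_00010643 (chr17:26075315-26081142), beyond the 3′ end of NOS2, the inducible nitric oxide synthase, was listed at 0 under vehicle in both lines and had 2.33 and 4.76 with ATRA, while NOS2 reached at most 0.00321. In each case the level of the neighbour was below that of the model in both ATRA groups. These models met the mean of 1 FPKM through their ATRA values, so this is a description only. Beside TMEM252 and NOS2, the entry rule alone places the mean of the model above that of the gene. CFAP58 and the coding model without a symbol themselves had higher values with ATRA in both lines.

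**Figure D2:**
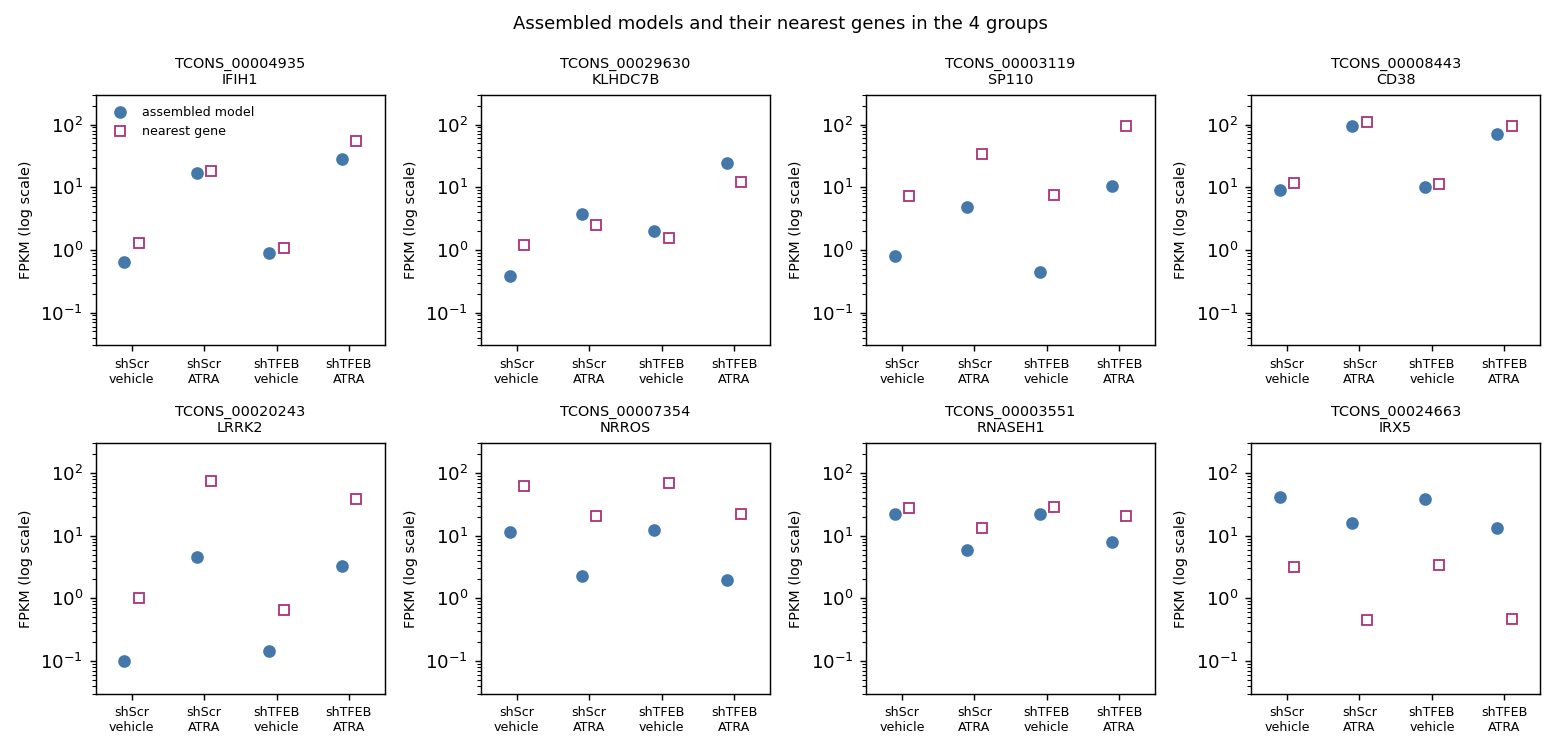
FPKM on a log scale (y axis) in the 4 groups (x axis) for 8 assembled models (filled circles) and their nearest genes (open squares, summed coding models), with 1 value per group and no error bar. The models near IFIH1, KLHDC7B, SP110, CD38 and LRRK2 lie higher in both ATRA groups, and those near NRROS, RNASEH1 and IRX5 lie lower.

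Among the models that were lower with ATRA, TCONS_00007354 (chr3:196363400-196366498), 157 bases 5′ of NRROS, had 11.4, 2.29, 12.4 and 1.96. NRROS, which anchors latent TGF-beta and restrains reactive oxygen species in myeloid cells, had 62.1, 20.9, 69.1 and 22.4. The vehicle groups were alike and the ATRA groups low in both, with log2 ratios of -1.91 and -2.18 for the model and -1.53 and -1.58 for the gene.

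RNASEH1, which cuts RNA in RNA-DNA hybrids, had 4 overlapping models at its 5′ end, over the noncoding RNASEH1-DT. Their sum was 34.5, 9.59, 33.9 and 12.8. The largest, TCONS_00003551 (chr2:3606082-3607302, gap of 141 bases), had 22.0, 5.86, 21.9 and 7.82, while RNASEH1 had 28.0, 13.2, 29.1 and 20.4. The model passed the mark in both lines and the gene in shScr cells alone, with a log2 ratio of -1.03 there and -0.49 in shTFEB cells.

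IRX5, a homeobox factor, had 3 overlapping models on its 5′ side, over the long noncoding RNA CRNDE, which is known from colorectal and blood cancers. Their sum was 59.2, 20.8, 60.4 and 20.5. TCONS_00024663 (chr16:54952845-54962691) gave most of it, at 41.4, 15.7, 38.2 and 13.1, and TCONS_00024235 (chr16:54952778-54962690) had 17.8, 5.05, 17.3 and 5.21. The gene was much lower, at 3.21, 0.451, 3.42 and 0.462. Both of these models and the gene were lower with ATRA in each line, with log2 ratios of -1.34 and -1.48 for the first and -1.64 and -1.56 for the second.

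FBXO10, a substrate receptor of a ubiquitin ligase, had TCONS_00015668 (chr9:37509147-37510296) beyond its 3′ end at 12.6, 4.22, 15.0 and 2.82, above the gene's 1.92, 0.805, 1.84 and 0.942. NCR3LG1, the tumour ligand of the natural killer receptor NKp30, had TCONS_00019861 (chr11:17402306-17403209) at 16.5, 6.13, 14.3 and 8.02 beside 12.6, 3.99, 11.3 and 5.31. The first passed the mark in both lines and the second in shScr cells alone (-1.30 against -0.77). PEBP1, an inhibitor of RAF kinase, had 389, 94.0, 333 and 107, and its 5′ model TCONS_00021414 (chr12:118555475-118573735) had 4.12, 1.38, 3.25 and 0, or 5.98, 2.20, 4.95 and 1.03 with all overlapping models. Over MARVELD1, which was listed at 0, TCONS_l2_00003188 (chr10:99474823-99477903) and TCONS_l2_00003187 (chr10:99473537-99477907) had 6.42, 2.28, 7.08 and 2.31, and 5.81, 1.76, 5.44 and 1.93. Since these models lie on the coding locus itself, the gene's own reads may have been counted on them, which was not tested.

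Model and neighbour were then compared over the 210 models whose gene had a mean of at least 1 FPKM. Counted once per model, the nearest gene was higher with ATRA for 19 of the 210 and lower for 31 in shScr cells, and higher for 21 and lower for 17 in shTFEB cells. In shScr cells 40 of these models were higher with ATRA, and the nearest gene was higher too for 12, lower for 3 and within the mark for 25. Of the 25 lower models, the gene was lower for 10, higher for 1 and within the mark for 14. In shTFEB cells the gene was higher for 14 of 26 higher models, lower for 1 and within the mark for 11, and it was lower for 6 of 21 lower models, higher for 1 and within the mark for 14. Across these 210 models the log2 ratios of model and nearest gene had a Pearson correlation of 0.46 in shScr and 0.55 in shTFEB cells. With the next gene along the chromosome in place of the nearest the values were 0.24 and 0.29. These correlations describe models that share libraries, and within a set share fragments.

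The likeness was closer on the 3′ side. There the correlation with the nearest gene was 0.72 in shScr and 0.76 in shTFEB cells over 60 models, and 0.04 and 0.11 with the next gene. On the 5′ side it was 0.37 and 0.49 over 144 models, and 0.34 and 0.40 with the next gene. The direction was the same for 50 of the 60 models on the 3′ side (83.3%) and 96 of the 144 on the 5′ side (66.7%) in shScr cells, and for 48 (80.0%) and 92 (63.9%) in shTFEB cells. Over the 184 models above 0 in all 4 groups, both sides together, the correlation was 0.63 in shScr and 0.72 in shTFEB cells. The difference between the sides was not tested.

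**Figure D3:**
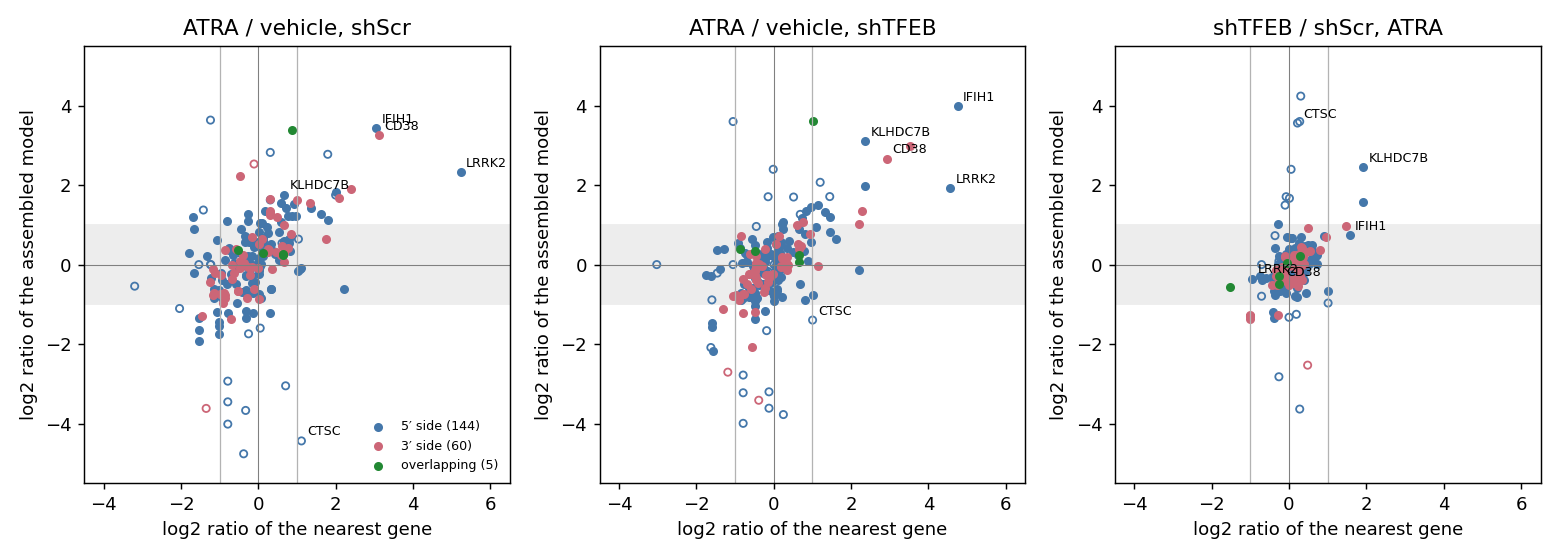
Log2 ratio of each assembled model (y axis) against that of its nearest gene (x axis) for ATRA against vehicle in shScr cells, the same in shTFEB cells, and shTFEB against shScr under ATRA, with 5′ models in blue, 3′ models in red, overlapping ones in green and open circles for models listed at 0 in a group. Grey bands and lines mark 2-fold. For ATRA against vehicle, the models near IFIH1, CD38 and LRRK2 lie high beside high genes in both lines. The model near KLHDC7B does so in shTFEB cells, while in shScr cells the gene KLHDC7B stays within the mark. For shTFEB against shScr, the models near CD38 and LRRK2 lie below 0, as do their genes. Most models far from the diagonal are open circles.

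In shScr cells several models were higher with ATRA where the neighbour was not. Those near AKAP1 and AHDC1 met the mean of 1 FPKM mainly through their ATRA values. In shTFEB cells the models named here stayed within the mark, at log2 ratios of 0.39 (TRMT1), 0.96 (AKAP1) and 0.72 (AHDC1). TRMT1, a tRNA methyltransferase, had 33.1, 9.68, 34.4 and 13.5, while its 5′ model TCONS_00027488 (chr19:13227694-13228971) had 2.32, 6.64, 2.54 and 3.64. In shScr cells they went opposite ways past the mark. AKAP1, an anchor protein of mitochondria, had 16.5, 5.55, 17.0 and 12.2 and its 5′ model TCONS_00026124 (chr17:55149782-55162000) had 0.468, 2.80, 0 and 0.944. With all models overlapping that one the sum was 0.970, 3.95, 0.893 and 3.26, and its log2 ratios of 1.33 and 1.17 passed the mark in both lines. At AHDC1, a DNA-binding protein gene, the 3′ model TCONS_00000171 (chr1:27852316-27857072) had 0.303, 5.06, 0.516 and 1.50 beside 2.93, 1.83, 3.19 and 1.33 for the gene.

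Between the lines fewer models differed. Under vehicle 8 models were higher and 5 lower in shTFEB than in shScr cells, 13 of 259 (5.02%) where 4.41% of all models passed (2.43% upwards and 1.97% downwards), and 10 of the 13 were listed at 0 in a compared group. Under ATRA 10 were higher and 14 lower, 24 of 259 (9.27%) where 7.55% of all passed (4.42% upwards and 3.13% downwards), and 14 of the 24 were listed at 0 in a compared group. The difference of the ATRA responses, shTFEB minus shScr, passed the mark for 12 models upwards and 15 downwards, 27 of 259 (10.4%) where 9.44% of all did (5.05% upwards and 4.39% downwards). These comparisons share their groups with the ATRA comparisons and are not separate evidence. In the farther assembled models 7.95% passed under vehicle, 13.2% under ATRA and 17.2% for the difference. Under ATRA the correlation of model and nearest gene was 0.62 on the 3′ side and 0.28 on the 5′ side.

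Of the models above 0 in all 4 groups, 3 passed the mark upwards between the lines under ATRA (shTFEB over shScr), with both models near KLHDC7B among them, and 7 downwards, of which 4 formed a single set. The share of all models under that filter is not given here. ANKRD36, an ankyrin repeat gene, had 4 overlapping models beyond its 3′ end, whose sum was 3.90, 16.8, 4.06 and 4.40. The shScr ATRA group alone was high, and the other 3 were alike. The largest, TCONS_00004341 (chr2:97932680-97935466), had 1.17, 5.78, 1.27 and 1.63, while ANKRD36 had 6.19, 7.88, 5.11 and 3.45. All 4 models passed the mark with ATRA in shScr cells, and none in shTFEB cells, where their log2 ratios ran from -0.03 to 0.22. ANKRD36 has near-identical copies, between which counting can split fragments.

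At the 5′ end of ATP11A, a phospholipid flippase, a set of 2 models summed to 3.47, 11.9, 2.65 and 4.72, and TCONS_00022126 (chr13:113342591-113343964) had 1.99, 7.72, 1.43 and 2.44. With a further overlapping model of a mean under 1 FPKM the sum was 3.47, 11.9, 3.64 and 6.08, and the log2 ratio of the lines under ATRA, -1.34 for TCONS_00022126, was -0.87, within the mark. The gene had 19.5, 29.5, 19.4 and 22.2. Both were highest in shScr ATRA, the gene within the mark. In the other direction, TCONS_l2_00026920 (chr7:138912216-138914980) on the 5′ side of UBN2, a histone chaperone subunit, had 23.3, 9.45, 23.5 and 20.2, where shScr ATRA alone was low. UBN2 had 5.96, 5.31, 5.31 and 4.20. CEP72, a centrosome protein, had a 3′ model, TCONS_00010868 (chr5:654144-654462), at 0.844, 4.43, 2.88 and 2.78, lowest in shScr vehicle, beside 7.84, 21.3, 7.18 and 17.2. ABRACL had a 5′ model 36 bases away, TCONS_00012612 (chr6:139348761-139349782), at 3.73, 4.45, 0.994 and 4.10, low in shTFEB vehicle alone, while the gene had 199, 307, 188 and 340. SLC20A1, a phosphate transporter, had TCONS_00005231 (chr2:113401534-113401955) on its 5′ side at 0.835, 2.39, 1.33 and 0.937, and the gene had 104, 32.3, 126 and 37.1. With all overlapping models the sum was 1.56, 2.39, 1.33 and 1.25, and the difference of responses went from -1.15 to -0.46, within the mark.

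A value of 0 was listed in at least 1 group for 32 models, and 20 of these shared a set with another model. In several sets the models traded places between groups, so that single models differed widely where the sum did not. Over the noncoding MAPKAPK5-AS1, TCONS_00020928 (chr12:112277578-112279771) had 0, 11.4, 0 and 0 and TCONS_00020927 (chr12:112277578-112279749) had 0, 0, 0 and 11.1. Their sum, 0, 11.4, 0 and 11.1, did not differ between the lines by more than 0.04 in log2 under ATRA, although each model alone passed the mark there. MAPKAPK5, a stress kinase, had 40.9, 16.8, 43.6 and 20.6.

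The second model at NEMF, TCONS_00022987 (chr14:50320440-50329571), had 26.1, 0, 20.3 and 17.9, and with TCONS_00022986 the sum was 171, 88.8, 131 and 112. Summed, the ATRA log2 ratio was -0.94 in shScr cells, against -4.76 for the second model alone. CTSC encodes cathepsin C, the lysosomal protease that activates granule serine proteases. TCONS_l2_00004704 (chr11:88071105-88132877), 163 bases 5′ of it, had 20.6, 0, 30.0 and 10.8, and its overlapping partner TCONS_l2_00004705 (chr11:88071175-88158232) had 2.94, 2.72, 3.19 and 1.49. The sum was 23.6, 2.72, 33.2 and 12.3, lower with ATRA in both lines, while CTSC was higher, at 157, 341, 197 and 397. CTSC was the only gene among 46 lysosome and autophagy genes listed (41 expressed) to have such a model. In that list 22 genes were higher and 0 lower with ATRA in shScr cells, and 17 and 0 in shTFEB cells. Of all models, 14.1% and 12.4% were higher in these lines.

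For TUG1, a long noncoding RNA beside MORC2, most zeros carry the mark of a failed estimate. TCONS_00029325 (chr22:31365634-31375377) had 15.1, 0, 14.9 and 0, TCONS_00029410 (chr22:31367353-31374831) had 9.95, 0, 8.35 and 0, and TCONS_00029336 (chr22:31368249-31375377) had 6.63, 0, 5.86 and 0. The deposited status was FAIL in both ATRA tables for the latter 2 and for the RefSeq model, and LOWDATA in all tables for the first. These 3 models are counted as lower with ATRA above, and nothing is read from them. LOWDATA stood in all 4 tables for 19 of the 259 models and FAIL for 2.

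At GMDS, an enzyme of fucose synthesis, the 5′ models over GMDS-DT also traded: TCONS_00011638 (chr6:2246028-2283748) had 7.28, 0, 12.7 and 0 and TCONS_00011148 (chr6:2246032-2284008) had 0.314, 2.51, 0.464 and 1.70. Their sum was lower with ATRA in both lines, at 7.59, 2.51, 13.1 and 1.70, while GMDS had 18.9, 31.4, 15.6 and 18.8. Over SBDSP1, TCONS_l2_00027137 (chr7:72299952-72304585) had 0, 0, 11.2 and 0 and TCONS_l2_00026005 (chr7:72301348-72307936) had 11.7, 0, 8.19 and 0. With TCONS_l2_00026003 their sum was 32.5, 16.8, 42.2 and 27.2, within the mark in each comparison. Beyond the 3′ end of ADCY1, over the SEPTIN7P2 pseudogene, 5 models summed to 39.6, 21.6, 29.3 and 25.2, also within the mark, although TCONS_l2_00026546 (chr7:45766087-45767934) alone had 28.8, 10.5, 16.8 and 13.9. With all overlapping models the sum near ADCY1 was 39.6, 21.6, 41.9 and 25.2. Its ATRA log2 ratios were -0.84 in shScr and -0.71 in shTFEB cells, still within the mark. In the IRX5 set, the smallest model, TCONS_00024664 (chr16:54953843-54963045), had 0, 0, 4.88 and 2.18.

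**Figure D4:**
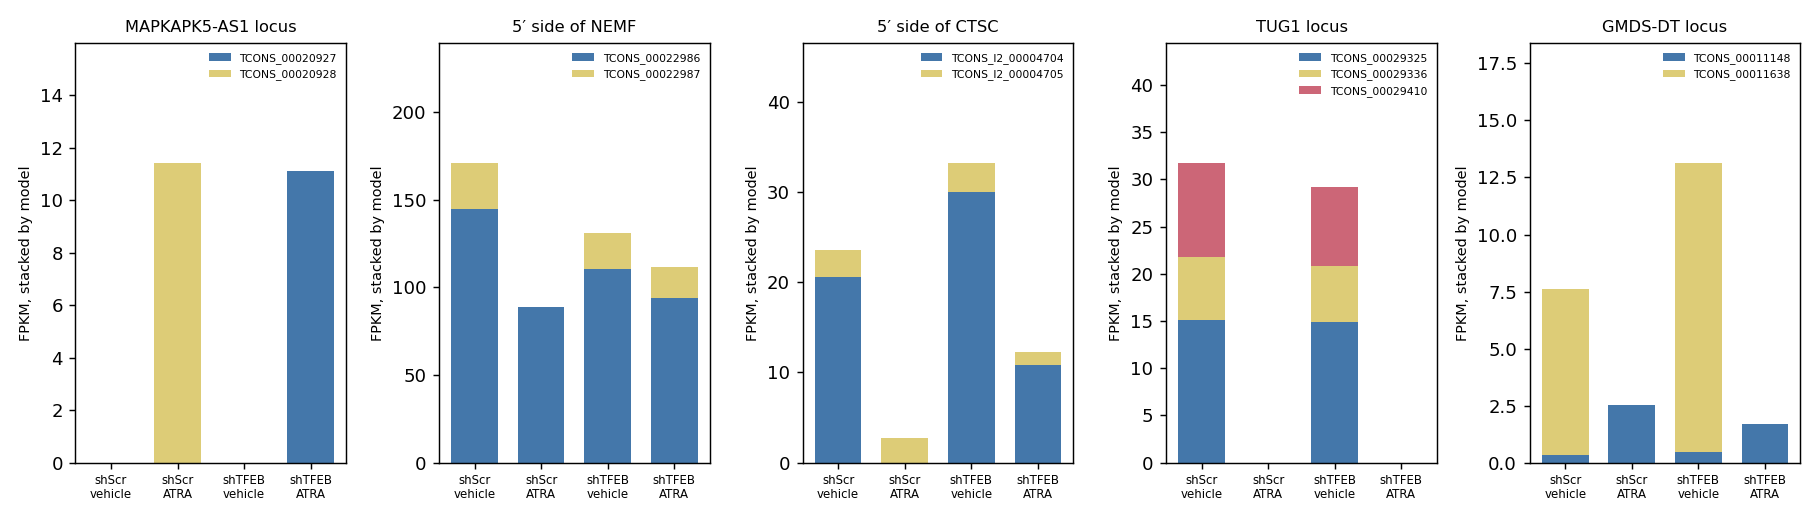
FPKM stacked by assembled model (y axis, linear) in the 4 groups (x axis) for 5 sets of overlapping models, with 1 value per model and group. At MAPKAPK5-AS1 the 2 ATRA groups have bars of 11.4 and 11.1 made of different models, and at TUG1 the ATRA bars are missing, since all 3 models are listed at 0, of which 2 have a failed estimate and TCONS_00029325 has the status LOWDATA in every table.

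The other 5 gene lists, for neutrophil maturation, promyelocyte granules and progenitors, MYC with ribosome biogenesis, chemokines with cytokines, and myeloid transcription factors, had 0 genes with an assembled model that met the rule. With ATRA in shScr cells, 25 of 32 expressed neutrophil maturation genes were higher and 2 lower. Of 21 promyelocyte genes 0 were higher and 18 lower, and of 31 MYC and ribosome biogenesis genes 1 and 24. Of 22 chemokine and cytokine genes 14 were higher and 2 lower, and of 44 myeloid transcription factors 19 and 7. Over all models of at least 1 FPKM, 14.1% were higher and 16.1% lower. The lists were drawn up with results of these data known.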

How the data were processed

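RNA of NB4 cells in 4 groups (2 samples each in the labels) was sequenced from TruSeq libraries. Per the submitters' processing notes, the authors used TopHat, Cufflinks and Cuffdiff on hg19, in versions not given in the sources used here. The deposited values are FPKM, 1 per transcript model and group, with bounds and a status. How the samples were combined and how the TCONS models were assembled are not stated, and with 1 value per group the replicate error and the absolute depth are unknown. If the samples came from 1 culture, any spread would be technical.

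Symbols came from RefSeq (GRCh38.p14) and GENCODE 29, matching 40364 of 41159 NM_ and NR_ accessions, and coordinates are hg19, counted from 1. A gene's FPKM is the sum of its coding models. The nearest gene had the smallest gap, then the largest overlap. Log2 ratios used a pseudocount of 1 FPKM and a mark of 1, with no further scaling. Calculations used Python 3.11.15, pandas 2.3.3 and numpy 2.4.6 and were tested on simulated data.

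The models and gene lists were chosen with earlier results of these data known. Named models were the 6 largest rises and falls per comparison (at least 2 FPKM, above 0, 1 per set), the 8 highest, the 6 farthest from their gene per ATRA comparison, those next to listed genes, up to 3 listed at 0 per comparison, and those at the limits. The promoters, the motifs, partner models of named sets and the models near IFITM2, RBP5, CD300C, NFAM1, NOS2, PEBP1, TRMT1 and AKAP1 were chosen after their values were seen. Alternatives were other pseudocounts, filters, distances, scalings and merged sets.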

Additional observations from a re-analysis of the deposited data

Results flagged for a closer look

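The ATRA responses of 2 models went opposite ways in the lines, which was not tested. TCONS_l2_00005952 (chr12:122502207-122502617), 2256 bases beyond the 3′ end of BCL7A, a chromatin remodelling subunit, had 0 FPKM (vehicle) and 4.77 (ATRA) in shScr cells and 9.65 and 0 in shTFEB cells, a difference of responses of -5.94 in log2. BCL7A had 0.783, 0.651, 2.01 and 1.31 in the same order. TCONS_00026579 (chr18:74533540-74534242) near ZNF236, over ZNF236-DT, had 2.03, 0, 0 and 2.27, a difference of 3.30, and ZNF236 had 2.68, 2.81, 2.99 and 2.62. Both models belong to a set with a partner. The set near BCL7A summed to 1.97, 5.72, 12.3 and 2.69, a difference of -3.03 that was still opposite past the mark. With all overlapping models the difference was -2.39, and the shScr response of 0.69 then lay within the mark. The set near ZNF236 summed to 2.76, 2.61, 1.00 and 3.70, with responses of -0.06 and 1.23 and a difference of 1.29, no longer opposite past the mark. In the single models the values of 0 carry the difference, and neither neighbour passed the 2-fold mark between vehicle and ATRA.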

How the results depend on the processing

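No paired analysis was possible because each table holds 1 value per group. For the same reason no replicate could be left out. Counts below are models past the 2-fold mark, in the order ATRA in shScr, ATRA in shTFEB, shTFEB against shScr under vehicle, the same under ATRA, and the difference of the ATRA responses (76, 54, 13, 24 and 27 as reported). Shares of all models under the other settings are not given here, apart from those for ATRA at 5 FPKM above. The counts therefore do not compare these models with all models.

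With a pseudocount of 5 FPKM they were 20, 21, 2, 6 and 9, with a mean of at least 5 FPKM 18, 11, 1, 4 and 5, and for the 18 overlapping models 4, 3, 0, 0 and 0. Within 1 kb they were 40, 30, 6, 11 and 11. A pseudocount of 0.1 FPKM gave 87, 31 and 50 for ATRA in shTFEB, the lines under vehicle and the difference, and no filter on low values gave 86, 24, 41 and 56 for the last 4. Merged sets gave 49, 8, 14 and 17 for all but ATRA in shTFEB. Models that overlap no RefSeq locus gave 48, 34, 6 and 17 for all but the lines under ATRA. The models above 0 in all groups, an alternative chosen after seeing the data, gave 32, 3, 10 and 14 for the last 4, and summing all overlapping assembled and noncoding models, also chosen after seeing the data, gave 5, 9 and 15 for the last 3.

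Models past the mark whose gene was not numbered 43 with ATRA in shScr, 27 in shTFEB cells and 20 between the lines under ATRA. They were 14, 15 and 5 with a pseudocount of 5 FPKM, 1, 0 and 0 for overlapping models, 27 and 11 for merged sets (ATRA in shScr, lines under ATRA), 27 and 15 for models off RefSeq loci (both ATRA comparisons), 53 with a pseudocount of 0.1 FPKM (ATRA in shTFEB), and 13 and 8 for models above 0 (last 2). Median-of-ratios scaling moved the median of all models by 0.12 and 0.11 in the ATRA comparisons. Of 244 alternative values of single named models, 216 stayed on their side of the mark, 28 fell within it and 0 reversed. These models were named for passing the mark, and a pseudocount cannot turn a direction, so the lack of reversals is no support. With a pseudocount of 5 FPKM, 23 of the 61 named values fell within the mark. With 0.1 FPKM it was 1 of 61, and with median-of-ratios or upper-quartile scaling 2 of 61 each. At levels near 1 FPKM, single fragments weigh on a ratio, and differences there were not detectable with any stated precision.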
